A study of Mus musculus with 9 samples.

Results

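The enterocyte identity transcription factors are the 8 genes Hnf4a, Hnf4g, Cdx1, Cdx2, Klf5, Elf3, Prdm1 and Gata6, whose proteins bind DNA and set the gene programme of intestinal epithelial cells. They were chosen by name, with earlier results of these data known, and their Ensembl identifiers picked 8 rows of the 31685 genes in a table of jejunal RNA levels. The table covers 9 wild-type C57BL/6J mice, described as adult males in the study's methods, with 3 mice in each of 3 groups. Control mice had no treatment. The TAI mice received a single 12 Gy X-ray dose of total abdominal irradiation (TAI), followed by PBS according to the series design. The TAI/IVIg mice received the same dose and then 500 mg/kg of intravenous immunoglobulin (IVIg), pooled human antibodies, by vein within the hour and every 3 days afterwards. Jejunum was taken on day 3, and all 9 libraries carry the same batch label. The labels call the tissue jejunal epithelial, while the methods describe whole jejunal tissue frozen for RNA extraction, and no cell sorting is described.

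Enterocytes, the absorptive cells of the villus, arise from stem and progenitor cells of the crypt. HNF4A and HNF4G are paralogous nuclear receptors that drive fatty acid, apolipoprotein and brush border genes in the differentiated cell. CDX1 and CDX2 are caudal homeobox proteins that define the intestinal against the gastric epithelium, with CDX1 richest in the crypt. KLF5 is a zinc finger protein of proliferating crypt cells, and ELF3 is an ETS family protein of differentiating epithelia. PRDM1, also called BLIMP1, is a repressor that maintains the suckling type of epithelium in the young gut and is also a master regulator of plasma cells. GATA6 acts with GATA4 in the small intestine, GATA4 being needed for the jejunal against the ileal programme.

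The values are FPKM, the fragments of a gene scaled to its length and to the total of its library. All values matched whole reads (tolerance 0.01 of a read), which gave totals from 16284529 to 18244735 reads a library (median 17312589). Libraries of a group correlated at 0.938 to 0.984 across genes (Pearson's r). Of 9 general epithelial markers, 0 were at 0 in all mice, and their summed level was 6891 to 8284 FPKM in the control mice, 7216 to 8067 FPKM in the TAI mice and 6904 to 9225 FPKM in the TAI/IVIg mice. The sum covers members that differed, since in TAI mice Cldn7 was called higher and Krt19, Krt8 and Tspan8 lower (log2 fold changes of 0.73, -1.91, -0.61 and -0.47), and in TAI/IVIg mice 3 were called higher and 3 lower, both against control. Markers of other cells were present too. Smooth muscle genes (6) summed to 482 to 621 FPKM in control, 536 to 765 FPKM in TAI and 113 to 554 FPKM in TAI/IVIg mice, and fibroblast genes (6) to 65.8 to 92.1, 73.7 to 94.2 and 21.1 to 47.9 FPKM. Fewer cells of a type and less RNA per cell cannot be told apart in such tissue.

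In the control jejunum the 8 factors spanned a wide range of length-scaled levels. Hnf4a was the highest at 195 ± 23.3 FPKM (SD, n = 3), above 98.1% of the 13056 genes tested, and Elf3 followed at 122 ± 22.2 FPKM. Hnf4g (75.7 ± 11.4 FPKM), Cdx2 (74.0 ± 9.88 FPKM), Cdx1 (59.6 ± 6.53 FPKM) and Klf5 (52.1 ± 2.65 FPKM) formed a middle group in which each neighbour's range over the 3 mice overlapped with the next. Gata6 at 6.97 ± 0.997 FPKM and Prdm1 at 4.49 ± 0.817 FPKM were well below, and their ranges did not overlap with each other. After TAI the order differed at both ends, with Elf3 at 236 ± 5.10 FPKM overlapping Hnf4a at 212 ± 19.7 FPKM, and with Prdm1 at 15.4 ± 2.17 FPKM overlapping Gata6 at 15.3 ± 2.50 FPKM. The summed level of the 8 genes was 542 to 618 FPKM in the control mice, 610 to 686 FPKM in the TAI mice and 590 to 706 FPKM in the TAI/IVIg mice.

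**Figure D1:**
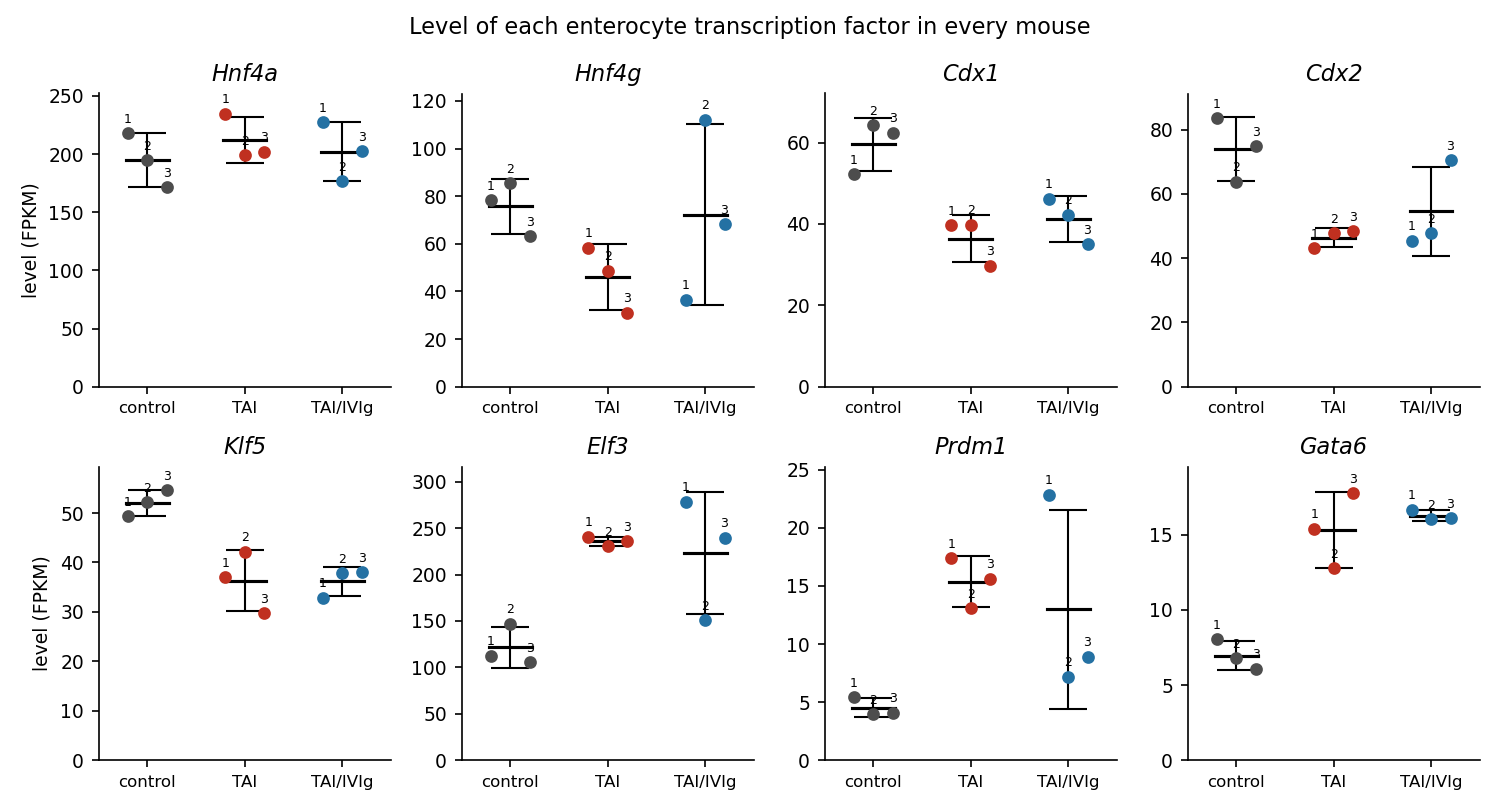
Length-scaled level (FPKM, y axis from 0) of each of the 8 factors in every control, TAI and TAI/IVIg mouse; points are mice with their replicate number, the thick bar is the mean and the thin bars the SD (n = 3). Gata6, Elf3 and Prdm1 lay higher and Cdx1, Cdx2, Klf5 and Hnf4g lower in all 3 TAI mice than in any control mouse, while TAI/IVIg mice 1 and 2 stood at opposite ends for Hnf4g, Elf3 and Prdm1.

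Compared with control mice, TAI mice had higher levels of 3 factors (Gata6, Prdm1 and Elf3) and lower levels of 3 others (Cdx1, Cdx2 and Klf5), while Hnf4a and Hnf4g did not pass the test. Differences were tested on log2(FPKM + 1) with limma, a linear model with a shared estimate of the spread, and a gene was called at a Benjamini-Hochberg adjusted p under 0.05 over all 13056 genes tested. The 6 of 8 factors called stand beside 34.9% of all genes tested, or 8.81% called higher and 26.1% called lower. Ranges of the 3 mice did not overlap for 7 of the 8 factors, against 53.0% of all genes. The median log2 fold change of the 8 factors was -0.20, beside -0.235 for all genes.

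Gata6 (ENSMUSG00000005836, chr18:11052064-11085635, plus strand of GRCm38) had the smallest p-value of the 8. Its level was 8.05, 6.77 and 6.08 FPKM in control mice 1 to 3, 15.4, 12.8 and 17.8 FPKM in TAI mice 1 to 3, and 16.7, 16.0 and 16.1 FPKM in TAI/IVIg mice 1 to 3. The lowest irradiated mouse was above the highest control mouse. The log2 fold change in TAI was 1.03 (SE 0.15, limma adjusted p = 0.00182), from 685 to 910 reads in control and 1355 to 2111 reads in TAI mice. GATA6 is also made by smooth muscle and some macrophages. Of the 6 smooth muscle genes 0 were called in this comparison. All 6 had a log2 fold change above 0 (median 0.28, beside -0.235 for all genes). The 5 macrophage genes summed to 105 to 117 FPKM in control and 84.9 to 101 FPKM in TAI mice, with 1 called lower. The part of these cells in the Gata6 level was not tested.

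Prdm1 (ENSMUSG00000038151, chr10:44437177-44528501, minus strand) had the largest log2 fold change of the 8 factors in TAI. It stood at 5.44, 3.98 and 4.07 FPKM in the control mice (392 to 527 reads) and at 17.4, 13.1 and 15.6 FPKM in the TAI mice (1189 to 1663 reads). Every TAI mouse was above every control mouse, a log2 fold change of 1.58 (SE 0.35, limma adjusted p = 0.00994), or 3.42 times the control mean in FPKM. Plasma cell markers were not called higher with it. Of 7 such genes 6 were tested, 0 were called higher and 1 (Derl3) lower, and their sum was 601 to 694 FPKM in the control mice against 325 to 641 FPKM in the TAI mice. The part of plasma cells in the Prdm1 level was not tested.

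Elf3 (ENSMUSG00000003051, chr1:135253575-135258568, minus strand) was at 113, 147 and 106 FPKM in the control mice and at 241, 231 and 236 FPKM in the TAI mice. The TAI mice were close to each other, with a coefficient of variation of 2.16% against 18.2% in control, and none overlapped with control. Its log2 fold change was 0.96 (SE 0.23, limma adjusted p = 0.0128). Whether the counting used strand is not given in the sources used here, so reads of an overlapping antisense gene cannot be separated. The table lists 72 to 150 reads a mouse for Gm26642 beside 4050 to 11107 for Elf3, 8 to 33 for Hnf4aos beside 14322 to 19748 for Hnf4a, and 36 to 223 for 1010001N08Rik beside 685 to 2111 for Gata6.

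Cdx1, Cdx2 and Klf5 fell by similar amounts. Cdx1 (ENSMUSG00000024619, chr18:61018862-61036199, minus strand) was at 52.2, 64.3 and 62.5 FPKM in control and at 39.7, 39.8 and 29.7 FPKM in TAI mice. Its log2 fold change was -0.70 (SE 0.17, limma adjusted p = 0.0122). Cdx2 (ENSMUSG00000029646, chr5:147300805-147307270, minus strand) was at 83.5, 63.8 and 74.9 FPKM in control and at 43.1, 47.7 and 48.3 FPKM in TAI mice. The change was -0.66 (SE 0.18, limma adjusted p = 0.0236). Klf5 (ENSMUSG00000005148, chr14:99298691-99315036, plus strand) was at 49.4, 52.2 and 54.6 FPKM in control and at 37.0, 42.2 and 29.8 FPKM in TAI mice, a log2 fold change of -0.52 (SE 0.15, limma adjusted p = 0.0238). No TAI mouse reached the lowest control mouse in any of the 3 genes. Crypt and cycling cell markers were lower in the same mice, with Olfm4, Mki67 and Top2a all called lower (3 of 3 tested, of 5 listed) and a summed level of 18.7 to 88.5 FPKM in control against 2.52 to 6.56 FPKM in TAI mice. The part of these cells in the falls was not tested. The Cdx2 call was lost without control mouse 1 (limma adjusted p = 0.0629) or 3 (0.0658) or TAI mouse 1 (0.0884), 2 (0.0541) or 3 (0.0501), and the Klf5 call without control mouse 2 (0.0661) or 3 (0.0737) or TAI mouse 1 (0.0697) or 3 (0.0686).

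Both HNF4 genes failed the test, with different patterns. Hnf4a (ENSMUSG00000017950, chr2:163506808-163572910, plus strand) was at 218, 194 and 171 FPKM in control and at 235, 199 and 202 FPKM in TAI mice, so the groups overlapped and the log2 fold change was 0.13 (SE 0.15, 95% interval -0.22 to 0.47, limma adjusted p = 0.548). Hnf4g (ENSMUSG00000017688, chr3:3508030-3658052, plus strand) was at 78.3, 85.5 and 63.1 FPKM in control and at 58.3, 48.7 and 31.1 FPKM in TAI mice. All 3 TAI mice were below the control mice, yet the log2 fold change of -0.74 (SE 0.38) had a limma adjusted p of 0.157. This SE came from a fit of every mouse and was the same whichever groups were compared. The coefficient of variation of Hnf4g was 52.5% among TAI/IVIg mice, 29.9% among TAI mice and 15.1% among control mice. With replicate numbers as a block in a fit of the control and TAI mice alone, chosen after seeing the data because same-numbered mice of these groups varied together, the same change had a limma adjusted p of 0.0183. That fit both added the block and left out the TAI/IVIg mice, and the part of each was not tested. Hnf4g was not called with the block over all mice. Without the block, the control and TAI mice alone gave 6 called factors (3 higher and 3 lower), against 7 (3 and 4) with it.

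**Figure D2:**
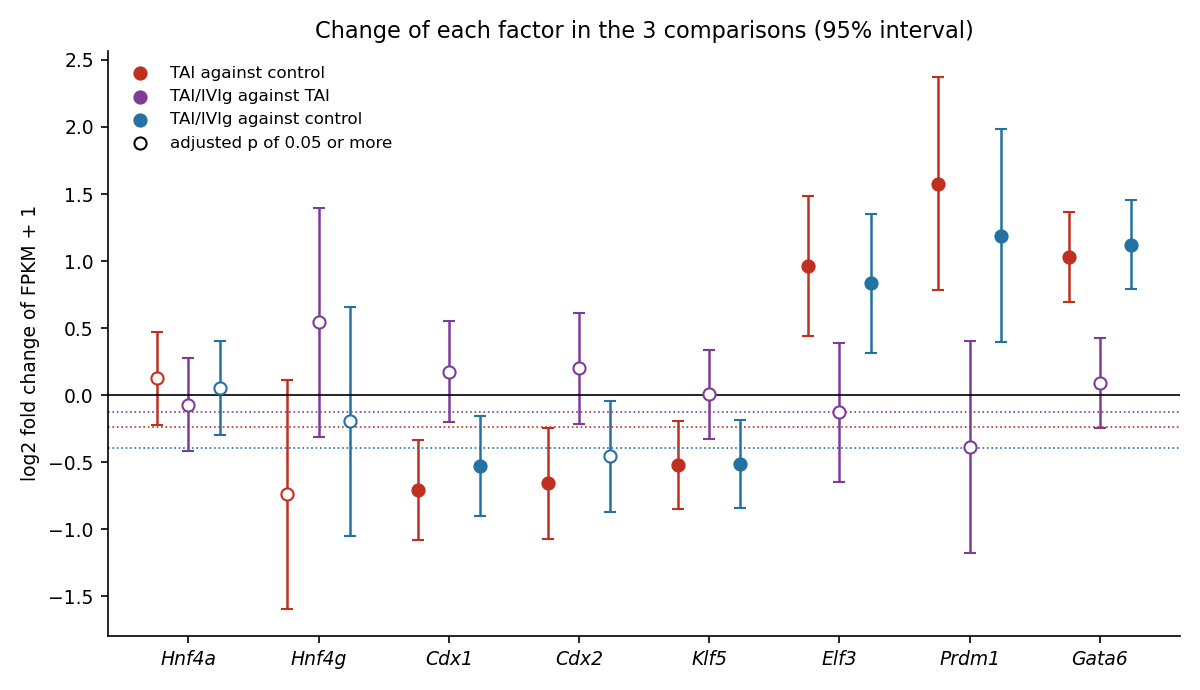
Log2 fold change of FPKM + 1 (y axis) of each factor in TAI against control, TAI/IVIg against TAI and TAI/IVIg against control, with bars for the 95% interval from limma; filled points had an adjusted p under 0.05, and dotted lines mark the median of all tested genes in the comparison of the same colour (-0.235, -0.128 and -0.393). The intervals of Elf3, Prdm1 and Gata6 against control lay above 0, and all intervals for TAI/IVIg against TAI included 0.

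The rises and the falls differed in how they depended on the scale of the libraries. Most called genes were lower after TAI when FPKM values were used as deposited (1150 higher and 3411 lower, 25.2% higher). Slightly more were lower than higher after quantile normalization (1994 higher and 2284 lower, 46.6% higher) and with limma voom, a fit of the recovered reads, at median-ratio library sizes (1678 and 2109, 44.3% higher). More were higher than lower when the library medians were set equal (2159 and 1823, 54.2% higher). The same held for levels relative to the epithelial markers (1398 and 1042, 57.3% higher). That scaling used the mean log2 level of the markers, in which each counts equally, and not their summed level. It moved the median log2 fold change of all genes from -0.235 to 0.001. Of the markers, 4 had a log2 fold change above 0 and 5 below 0, the largest being that of Krt19 (-1.91). Whether this scaling corrects for epithelial content was not tested. Under 6 scalings in all, Gata6 kept a log2 fold change of 1.03 to 1.38, Prdm1 of 1.58 to 2.03 and Elf3 of 0.96 to 1.25, each called in 6 of 6. Cdx1 ranged from -0.72 to -0.42 and was called in 3 of 6, Cdx2 from -0.67 to -0.37 and Klf5 from -0.53 to -0.23, each called in 2 of 6. Their direction was the same under all 6 scalings, while the falls were no longer called once the median gene was placed near 0, except Cdx1 after quantile normalization.

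**Figure D3:**
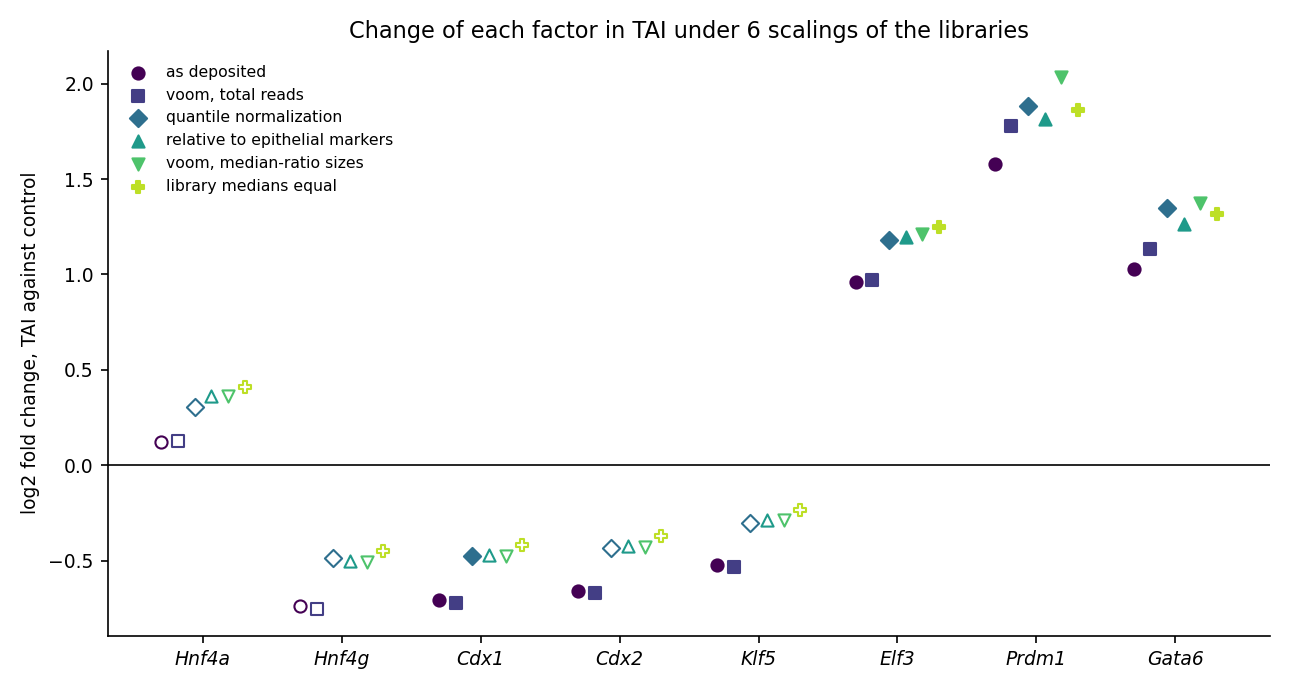
Log2 fold change in TAI against control (y axis) of each factor under 6 scalings of the libraries, shown by symbol; filled symbols had a limma adjusted p under 0.05. Gata6, Prdm1 and Elf3 were filled under all 6, Cdx1 under 3, and Cdx2 and Klf5 under 2.

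Compared with TAI mice, TAI/IVIg mice showed no called difference in any of the 8 factors, and the ranges of the mice overlapped for all 8. With limma, 0 of 8 factors and 0 of all 13056 genes were called (percent called 0), 0 of the 8 and 1680 of all genes had an unadjusted p under 0.05, and limma voom on the recovered reads called 0 of 8 and 0 of all genes as well. Ranges did not overlap for 19.1% of all genes. These counts do not show that the factors were alike. The 95% interval of the log2 fold change was -0.24 to 0.43 for Gata6, -0.32 to 0.34 for Klf5, -0.42 to 0.28 for Hnf4a, -0.20 to 0.55 for Cdx1 and -0.21 to 0.62 for Cdx2. It was wider for Elf3 (-0.65 to 0.39), Prdm1 (-1.18 to 0.41) and Hnf4g (-0.31 to 1.40).

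These wide intervals came with a large spread among the TAI/IVIg mice. Hnf4g was at 36.5, 112 and 68.2 FPKM in TAI/IVIg mice 1 to 3, so mouse 2 was above and mouse 1 below every control mouse. Prdm1 was at 22.9, 7.18 and 8.89 FPKM, with mouse 1 above every TAI mouse and mice 2 and 3 between the control and TAI ranges. For Elf3 the values were 279, 151 and 240 FPKM, and mouse 2 was close to the highest control mouse (147 FPKM). Mouse 1 was thus low in Hnf4g and high in Prdm1 and Elf3, and mouse 2 the reverse. The coefficient of variation within TAI/IVIg was 52.5% for Hnf4g, 66.2% for Prdm1 and 29.4% for Elf3, against 2.17% for Gata6 and 8.02% for Klf5. Markers of other cells were lower in TAI/IVIg than in TAI mice at an unadjusted p under 0.05 for 6 of 6 smooth muscle, 6 of 6 fibroblast, 4 of 4 goblet and 4 of 4 Paneth cell genes, 2 of 5 endothelial and 0 of 5 macrophage genes, with 0 called after adjustment. Their part in the levels of the 8 factors was not tested.

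Compared with control mice, TAI/IVIg mice had 5 of the 8 factors called, beside 46.4% of all genes (9.06% higher and 37.4% lower), and 5 of the 8 without overlap beside 55.8% of all genes. This comparison shares its control mice with that of TAI against control. Gata6 (log2 fold change 1.12, SE 0.15, limma adjusted p = 0.000844), Elf3 (0.84, SE 0.23, limma adjusted p = 0.0166) and Prdm1 (1.19, SE 0.35, limma adjusted p = 0.0222) rose. Klf5 was at 32.9, 37.8 and 38.0 FPKM in the TAI/IVIg mice and fell (log2 fold change -0.51, SE 0.15, limma adjusted p = 0.0190), as did Cdx1 at 46.2, 42.3 and 35.0 FPKM (-0.53, SE 0.17, limma adjusted p = 0.0285). Cdx2 was at 45.4, 47.8 and 70.4 FPKM, with mouse 3 inside the control range, and its change of -0.45 (SE 0.18) had a limma adjusted p of 0.0695. Hnf4a was at 227, 177 and 202 FPKM, a log2 fold change of 0.05 (SE 0.15, limma adjusted p = 0.783), and Hnf4g changed by -0.20 (SE 0.38, limma adjusted p = 0.684), with both groups overlapping control.

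Several of these calls were lost when any of 2 or 3 different mice was left out. The count of 5 became 2 without control mouse 2 and 1 without control mouse 3. Cdx1 was no longer called without control mouse 2 (limma adjusted p = 0.0845) or 3 (0.0829) or TAI/IVIg mouse 3 (0.101), nor Klf5 without control mouse 2 (0.0506) or 3 (0.0602) or TAI/IVIg mouse 1 (0.0505). Elf3 missed the threshold without control mouse 3 (0.0585) or TAI/IVIg mouse 3 (0.0567), and Prdm1 without control mouse 2 (0.0625) or 3 (0.0652). Cdx2 passed it without TAI/IVIg mouse 3 (limma adjusted p = 0.0156), and Gata6 was called whichever mouse was left out. Under the 6 scalings Gata6, Prdm1 and Elf3 were called in 6 of 6, and Cdx1 (-0.54 to -0.03) and Klf5 (-0.53 to -0.01) in 2 of 6, while Cdx2 was not called in any and was above 0 in 2. Of all called genes 19.5% were higher as deposited, 60.3% with library medians set equal, 51.7% after quantile normalization and 57.7% relative to the epithelial markers.

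The balance between related factors within a mouse does not depend on the scale of its library. Hnf4g to Hnf4a was 0.359, 0.440 and 0.368 in the control mice and 0.248, 0.245 and 0.154 in the TAI mice, a difference in the log2 ratio of -0.88 with no overlap. Gata6 to Gata4 was 0.380, 0.300 and 0.361 in control against 1.01, 0.766 and 1.60 in TAI mice, a difference of 1.64 on the log2 scale. Klf5 to Klf4, 2 members of a family in which KLF4 marks differentiated cells, was 0.433, 0.559 and 0.771 in control and 0.206, 0.294 and 0.192 in TAI mice, a difference of -1.33. Each of these 3 had a two-sided exact permutation p of 0.10, which is the smallest that 3 mice against 3 allow, and 0.24 after adjustment over the 12 ratio tests. Cdx1 to Cdx2 differed by -0.05 on the log2 scale (exact permutation p = 0.70), a difference smaller than the SD of 0.35 among the control mice.

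In the TAI/IVIg mice Gata6 to Gata4 was 0.991, 0.797 and 0.727, above every control mouse (log2 difference 1.27, exact permutation p = 0.10, 0.24 adjusted). Klf5 to Klf4 was 0.135, 0.245 and 0.206, below every control mouse (log2 difference -1.59, exact permutation p = 0.10, 0.24 adjusted). Hnf4g to Hnf4a was 0.160, 0.635 and 0.337, which spans the control and TAI ranges (exact permutation p = 0.70 against control and 0.40 against TAI). All 4 ratios overlapped between TAI/IVIg and TAI mice. Of the denominators, Gata4 was at 20.2 ± 2.98 FPKM in control and 14.3 ± 2.89 FPKM in TAI mice (SD, n = 3, limma adjusted p = 0.0713, or 0.0264 with the block over control and TAI mice), and Klf4 rose from 92.7 ± 21.6 to 159 ± 18.4 FPKM (SD, n = 3, limma adjusted p = 0.0231).

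**Figure D4:**
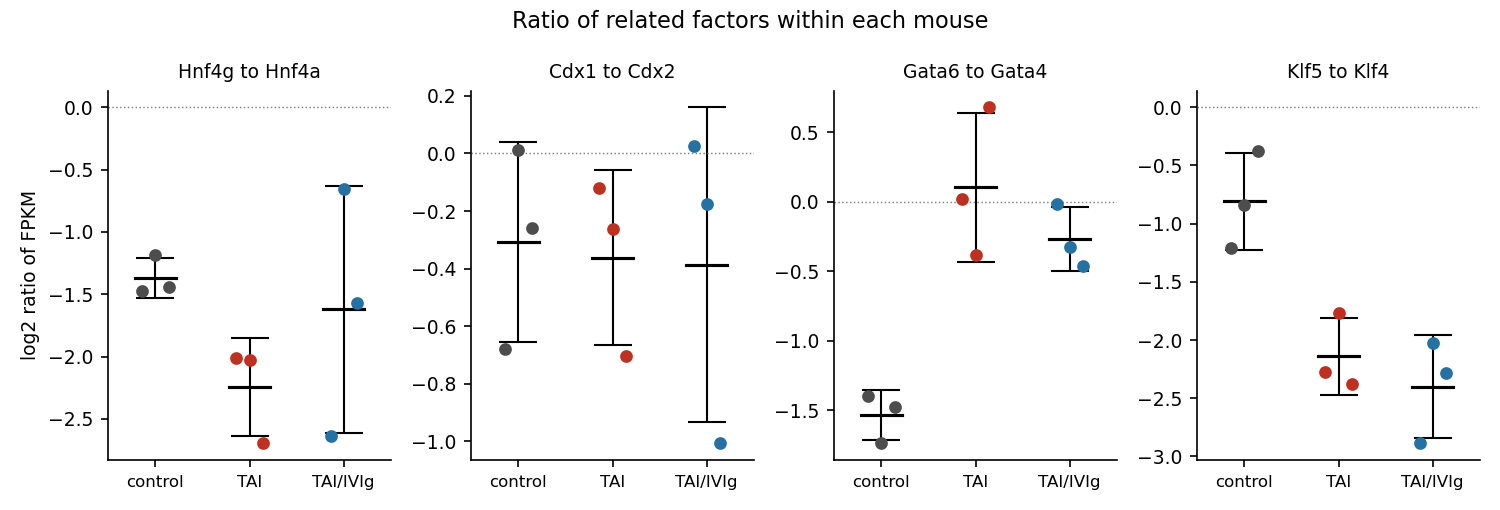
Log2 ratio of FPKM (y axis, a different scale in each panel) of 4 pairs of related factors within each mouse; points are mice by group, thick bars means and thin bars SD (n = 3), and the dotted line marks equal levels. Hnf4g to Hnf4a and Klf5 to Klf4 lay lower and Gata6 to Gata4 higher in all TAI mice than in the control mice, and Cdx1 to Cdx2 overlapped in all groups.

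Of 18 genes known as HNF4 targets, 10 rose in TAI mice and 0 fell, beside 8.81% called higher and 26.1% called lower of all genes. Their median log2 fold change was 0.76 beside -0.235 for all genes. Apoa4, an apolipoprotein of chylomicrons, was at 435, 230 and 271 FPKM in the control mice and at 2370, 2055 and 2404 FPKM in the TAI mice, a log2 fold change of 2.91 (SE 0.24, limma adjusted p = 0.000283). Apoc3, which inhibits lipoprotein lipase, changed by 2.71, Apob, the structural protein of chylomicrons, by 2.41 and Creb3l3, a transcription factor of lipid metabolism, by 1.70 (all called). The other 6 that rose were Apoa1, Fabp1, Fabp2, Cdhr2, Cdhr5 and Espn, which carry lipid or build the microvilli. Fabp2 was not called with the replicate block over all mice (limma adjusted p = 0.0516), which called Ttr lower (0.0391), and neither Fabp2 (0.0754) nor Espn (0.0659) was with the block over control and TAI mice. Vil1 and Myo1a, also of the microvilli, and Mttp, which loads lipid on apolipoprotein B, had log2 fold changes of -0.05, -0.12 and -0.13 and were not called, and each changed sign under at least 1 of the 6 scalings. In the same mice neither Hnf4a nor Hnf4g was called, and the Hnf4g mean was 0.609 times control. A link between the RNA levels of these factors and those of the targets was not tested.

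TAI/IVIg mice had 10 of the 18 HNF4 targets called higher and 1 called lower against control, beside 9.06% and 37.4% of all genes. The median was 0.89 beside -0.393 for all genes. Against TAI 0 of 18 were called (2 at an unadjusted p under 0.05), as were 0 of all genes. Fabp1, a fatty acid binding protein of the villus, was at 612, 350 and 350 FPKM in control, at 1201, 1536 and 978 FPKM in TAI and at 1477, 4870 and 4182 FPKM in TAI/IVIg mice. TAI/IVIg mouse 1, low in Hnf4g, was within the TAI range of Fabp1, and mice 2 and 3 were above it. The difference between TAI/IVIg and TAI was 1.35 on the log2 scale (limma adjusted p = 0.354). The gene called lower was Ttr, a thyroid hormone carrier, at 2.40 ± 0.520 FPKM in control and 1.28 ± 0.302 FPKM in TAI/IVIg mice (SD, n = 3, limma adjusted p = 0.0203), a call that 2 of the 6 scalings gave.

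Of the 9 CDX2 targets, 6 had a log2 fold change above 0 and 3 below 0 in TAI mice. A link between the RNA levels of Cdx2 and those of these targets was not tested. In TAI mice 2 rose (Lct and Muc2) and 0 fell, beside 8.81% called higher and 26.1% called lower of all genes. The median log2 fold change was 0.10. In TAI/IVIg mice against control 2 rose (Lct and Krt20) and 1 fell (Isx, called in 2 of 6 scalings), beside 9.06% and 37.4% of all genes. Against TAI 0 were called (1 at an unadjusted p under 0.05), as were 0 of all genes. Lct, which encodes the milk sugar enzyme lactase, was at 6.85, 16.6 and 4.82 FPKM in the control mice, at 190, 210 and 106 FPKM in TAI and at 216, 341 and 343 FPKM in TAI/IVIg mice. Its log2 fold change was 4.13 (SE 0.42, limma adjusted p = 0.000507) in TAI and 4.99 in TAI/IVIg against control, and it was called under all 6 scalings. Sis, the sucrase-isomaltase of the adult brush border, was at 375, 510 and 257 FPKM in control and at 189, 196 and 129 FPKM in TAI mice, without overlap (log2 fold change -1.12, SE 0.41, limma adjusted p = 0.0631, or 0.0377 with the replicate block over all mice and 0.00651 over control and TAI mice). Muc2, the main goblet cell mucin, was at 81.0 ± 10.9 FPKM in control and 148 ± 22.9 FPKM in TAI mice (SD, n = 3). In TAI/IVIg mice it was at 71.6 ± 29.4 FPKM (SD, n = 3), without overlap with TAI mice (log2 fold change -1.10, limma adjusted p = 0.353). Of 4 goblet cell genes 2, Muc2 among them, were called higher in TAI against control. Isx, Krt20 and Gucy2c had log2 fold changes of -0.43, 0.72 and 0.28 in TAI, without overlap with control, and were not called. Those of Cdh17, Vil1 and Heph were 0.04, -0.05 and 0.10 in TAI. The replicate block gave 4 called (3 higher and 1 lower) in place of 2, Krt20 and Sis being added, and the count was 1 without control mouse 2 or 3 or any single TAI mouse, and 4 without TAI/IVIg mouse 1 or 2.

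Regions just before the start of these genes were searched for short runs of letters known for the families of the factors. The 4 printed are among those that held a match. The windows of Apoa4, Apoa1, Cdhr2, Cdx2, Elf3 and Prdm1 held none and are not printed. Each is the 250 bases before a RefSeq start site on GRCm38.p6, 5′ to 3′ in the direction of the gene. The letters searched on both strands were AAAGTCC for HNF4, TTTATG for CDX, AGATAA for GATA, CCCCACCC for KLF, CCGGAAGT for ETS proteins such as ELF3, and GAAAGTGAA for PRDM1. Among all 32851 windows of this kind, 3.58% held the HNF4 letters, 10.8% the CDX letters, 9.99% the GATA letters, 9.05% the KLF letters, 2.88% the ETS letters and 0.481% the PRDM1 letters. Capitals mark the matches, CATAAA and TTATCT being the same letters on the other strand, and a match is a description of the sequence only.
Lct, chr1:128328319-128328568, minus strand: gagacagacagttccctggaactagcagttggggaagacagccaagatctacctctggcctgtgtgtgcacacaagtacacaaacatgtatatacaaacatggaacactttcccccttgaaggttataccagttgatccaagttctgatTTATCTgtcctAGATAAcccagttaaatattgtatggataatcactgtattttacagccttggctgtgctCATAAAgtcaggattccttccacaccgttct
Sis, chr3:72967864-72968113, minus strand: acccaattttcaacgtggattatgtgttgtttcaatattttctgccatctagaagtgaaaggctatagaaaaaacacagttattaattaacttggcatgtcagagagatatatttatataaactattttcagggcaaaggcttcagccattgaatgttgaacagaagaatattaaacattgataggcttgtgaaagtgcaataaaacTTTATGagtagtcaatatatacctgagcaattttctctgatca
Fabp1, chr6:71199629-71199878, plus strand: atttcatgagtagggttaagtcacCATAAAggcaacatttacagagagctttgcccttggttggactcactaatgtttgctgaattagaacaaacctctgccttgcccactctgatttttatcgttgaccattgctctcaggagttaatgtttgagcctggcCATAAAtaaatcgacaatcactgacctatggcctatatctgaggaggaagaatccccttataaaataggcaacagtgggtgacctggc
Hnf4a, chr2:163506607-163506856, plus strand: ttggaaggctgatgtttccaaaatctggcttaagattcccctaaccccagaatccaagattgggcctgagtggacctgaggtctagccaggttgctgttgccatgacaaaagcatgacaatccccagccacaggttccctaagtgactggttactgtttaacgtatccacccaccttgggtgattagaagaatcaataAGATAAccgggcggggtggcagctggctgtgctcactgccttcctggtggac

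Lct and Sis, with opposite signs of change in TAI, each held a CDX match near the start, 31 to 26 bases before it in Lct and 43 to 38 bases before it in Sis. Lct also held GATA matches 101 to 96 and 90 to 85 bases before its start, which the Sis window did not. Fabp1 held CDX matches 226 to 221 and 88 to 83 bases before its start. The CDX letters were in 2 of 6 windows of CDX2 targets, and the HNF4 letters in 0 of 18 windows, those of 15 HNF4 targets. Of the 8 factors, 4 (Hnf4a, Cdx2, Elf3 and Prdm1) had windows, 5 in all, and the only match to any of the 6 searches was the GATA match 52 to 47 bases before the upstream start of Hnf4a. Hnf4a has a second window at chr2:163546905-163547154, and the values per gene do not separate its starts.

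PRDM1 is known to hold the epithelium in its suckling type, so genes of that type and of the adult type were listed beside it. Of 5 suckling-type genes, Fcgrt, the neonatal Fc receptor, rose in TAI (log2 fold change 0.49, limma adjusted p = 0.0435) and Blvrb, a biliverdin reductase, fell (-1.04, limma adjusted p = 0.00334), while Ass1, Asl and Glb1 were not called (0.01, -0.07 and -0.01). Of 3 adult-type genes, Treh, the brush border trehalase, rose from 15.1 to 178 FPKM (log2 fold change 3.57, limma adjusted p = 0.000269), Arg2, a mitochondrial arginase, fell (-2.47, limma adjusted p = 0.00420) and Sis was not called. Neither of these short lists moved in a single direction. Lct, the lactase gene counted above among the CDX2 targets, is on neither list and rose in TAI (log2 fold change 4.13). Against control, TAI/IVIg mice had Fcgrt (0.82) called higher and Blvrb (-0.93) and Ass1 (-1.05) called lower among the suckling-type genes, and Treh (4.22) higher and Arg2 (-1.68) lower among the adult-type genes. Of these 5 calls, that of Ass1 held in 2, Arg2 in 3, Blvrb in 5 and Fcgrt and Treh in 6 of the 6 scalings.

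A list of 31 other intestinal epithelial transcription factors, 27 of them tested, had 9 called higher and 5 called lower in TAI, beside 8.81% and 26.1% of all genes. Their median log2 fold change was -0.26, beside -0.235 for all genes. The 4 largest rises were Tfcp2l1, a factor of epithelial duct cells (2.13), Mxd1, a MAX partner that opposes MYC (1.89), Creb3l3 (1.70) and Smad4, the shared mediator of BMP and TGF-beta signals (1.35). The 4 largest falls were Ehf, an ETS factor related to Elf3 (-2.11), Nr5a2, a nuclear receptor of crypt cells (-1.76), Osr2, a zinc finger factor (-1.37), and Nr1h4, the bile acid receptor (-1.09). All 8 were called under 6 of 6 scalings. Ehf was at 21.4, 29.2 and 26.3 FPKM in the control mice, at 5.43, 8.93 and 2.55 FPKM in TAI and at 1.16, 3.03 and 1.10 FPKM in TAI/IVIg mice, so the ETS factors Elf3 and Ehf moved in opposite directions. TAI/IVIg mice had 9 called higher and 8 called lower against control, beside 9.06% and 37.4% of all genes. Against TAI 0 were called (6 at an unadjusted p under 0.05), as were 0 of all genes. The count of 17 was 11 without TAI/IVIg mouse 3.

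**Figure D5:**
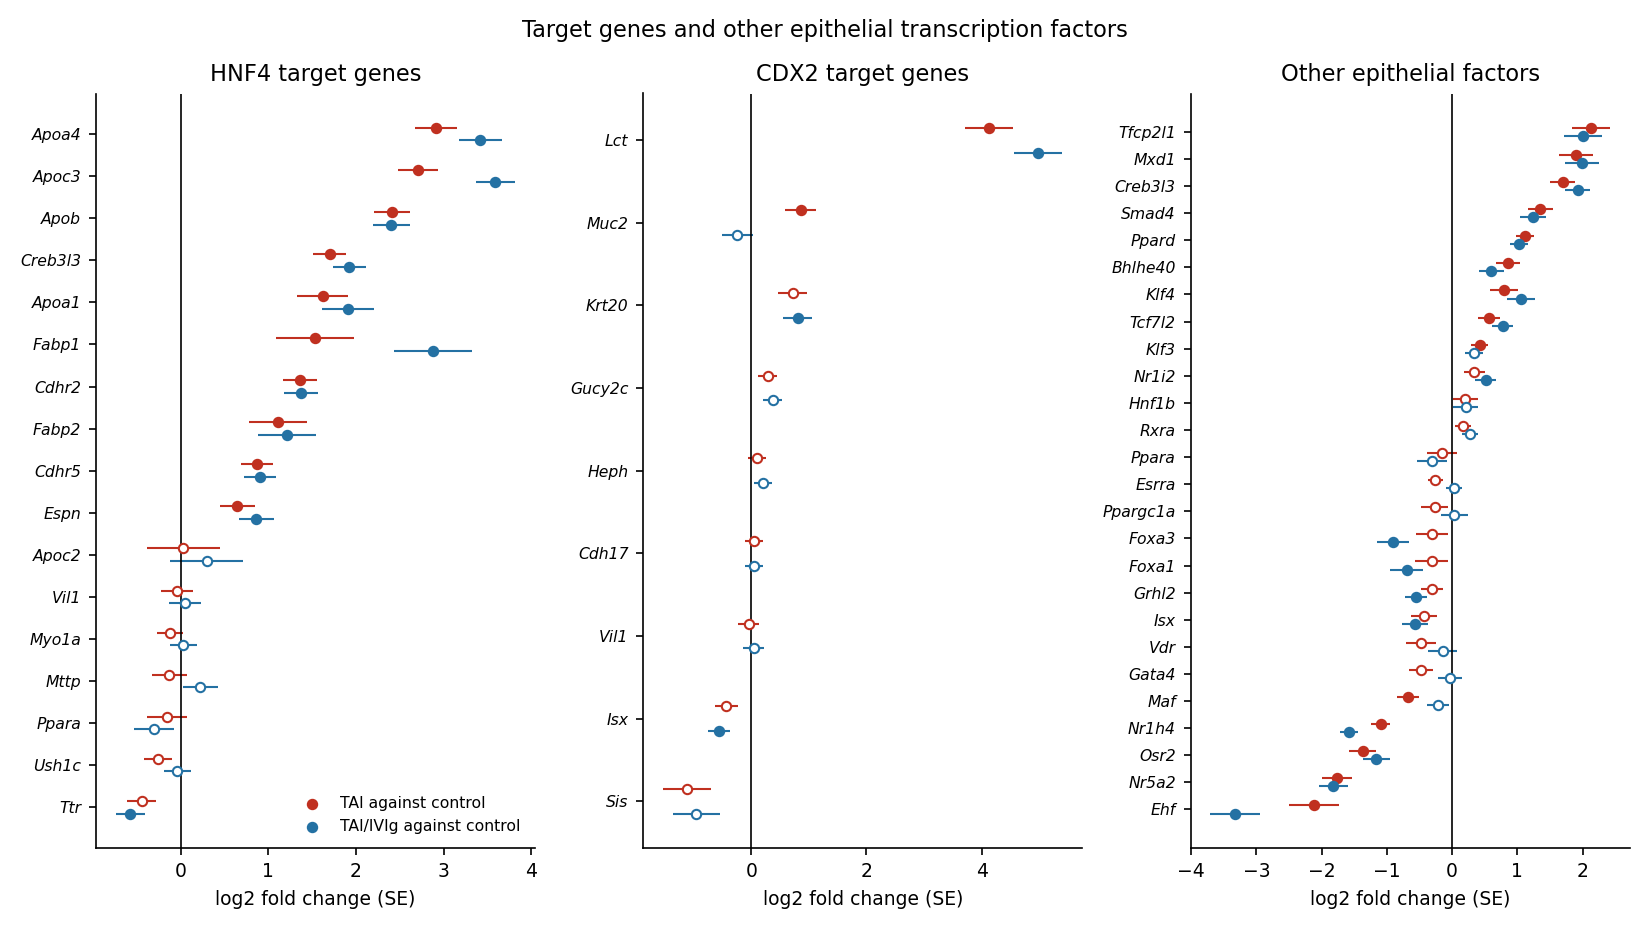
Log2 fold change with its SE (x axis) of the tested HNF4 target genes, CDX2 target genes and other epithelial transcription factors (1 list gene is not drawn), in TAI (red) and TAI/IVIg (blue) against control; filled points had a limma adjusted p under 0.05. Of the 18 HNF4 targets 10 were filled and above 0 in each comparison, Lct stood apart among the CDX2 targets, and the other factors moved both ways from Tfcp2l1 (2.13) to Ehf (-2.11) in TAI.

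Over the 9 mice, the genes whose log2(FPKM + 1) was most like that of a factor are given as a description, since the mice share the 3 groups. For Gata6 they were Apoa1 (Pearson's r = 0.992), Slc7a15 (0.992) and Nyap1 (0.992), of which Apoa1 is also on the list of HNF4 targets. Prdm1 was closest to Hspa12a (0.994), Tnks1bp1 (0.990) and Sh3yl1 (0.989), and Elf3 to Tdrd12 (0.982), Adm (0.979) and Rdh5 (0.979). Klf5 was closest to Fut8 (0.982), Slco4a1 (0.979) and Dalrd3 (0.976), Cdx1 to Akirin1 (0.957), Psmb8 (0.951) and Gm10226 (0.944), and Cdx2 to Gm49539 (0.969), Dnajb3 (0.968) and Smim4 (0.952). Hnf4g was closest to Cyb5b (0.959), Them4 (0.943) and Golga1 (0.941). Hnf4a had the lowest likeness, with Emp1 at 0.868, Plxnb2 at 0.851 and Chmp1b at 0.848.

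Among the factors themselves, Klf5 and Gata6 ran most clearly against each other over the 9 mice (Pearson's r = -0.952), and their deviations from the group means did so too (r = -0.865). Elf3 and Prdm1 ran together (0.898 over the mice and 0.631 for the deviations). Cdx1 and Cdx2 had r = 0.515 over the 9 mice but -0.755 for the deviations, so within groups the mice with more Cdx1 tended to have less Cdx2. Hnf4g and Prdm1 had r = -0.733 over the mice and -0.740 for the deviations, which rests in part on TAI/IVIg mouse 1 with 36.5 FPKM of Hnf4g and 22.9 FPKM of Prdm1. These values over 9 libraries are descriptions without a test.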

How the data were processed

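RNA was measured in jejunum from 9 mice (3 control, 3 TAI and 3 TAI/IVIg), grouped and numbered as the labels of the samples give. The authors deposited a single table of FPKM with 9 columns, and 0 other columns had to be set aside. The submitters' processing notes name FastQC, Trimmomatic, STAR, featureCounts, DESeq2 and the mouse build mm10 or GRCm38, with no role for each. The annotation, the filter and the use of strand are not given in the sources used here. With exon lengths of GENCODE M21, 100.0% of genes gave whole reads (tolerance 0.01), 30616 with the annotated length and 1069 with a searched one, which recovered a depth of 16284529 to 18244735 reads. The lowest count of any of the 8 factors in a library was 392 reads.

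The deposited FPKM values were not rescaled. Their log2 values, after adding 1, entered a linear model in limma 3.58.1 (R 4.3.3), with a term per group, a trended empirical Bayes step and every mouse in the fit. Testing was limited to the 13056 genes that reached 1 FPKM in 3 or more mice. A fold change on this scale understates that of low genes. P-values were adjusted by Benjamini-Hochberg within a comparison. Ratios of related factors were compared by two-sided exact permutation tests. The limma fit was tested on simulated data with known changes. Symbols were paired with 31146 of the 31685 identifiers, and promoter windows came from RefSeq. P-values measure the spread between these mice.

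The factors and lists were chosen with earlier results of these data known, so list counts are descriptions. A single list gene is counted but not reported here. The text names all 8 factors, Gata4 and Klf4, the 3 genes most like each factor, and up to 4 called genes in each direction of a list. Other genes (uncalled list members, further HNF4 targets and single markers) were picked for the text with their values known. As alternatives, the pseudocount was set to 0.1, and the filter was dropped or raised to a mean FPKM of 5. The libraries were also rescaled to equal medians, by quantile normalization or to the mean log2 level of 9 epithelial markers. Further rescalings were voom on the reads with total or median-ratio sizes. Fits of only the 6 mice compared, without the trend, with a replicate block and without each mouse in turn were run too. Neither labels nor methods say what a shared replicate number means. Same-numbered control and TAI mice deviated from their group means together (r = 0.271, 0.241 and 0.308), whereas r was -0.296 to 0.185 between control and TAI/IVIg mice and -0.067 to 0.201 between TAI and TAI/IVIg mice. For unlike numbers r was -0.336 to 0.146 between control and TAI mice. It reached 0.408 between control mouse 3 and TAI/IVIg mouse 2, above any same-numbered pair. A pairing of control with TAI mice is thus read from these data alone, and the block over those mice is only an alternative.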

Additional observations from a re-analysis of the deposited data

How the results depend on the processing

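Of the factors, Gata6, Prdm1 and Elf3 kept their call in TAI against control under every alternative run, each left-out mouse included, and 0 factors were called in TAI/IVIg against TAI under any. The number of factors called in TAI against control was 3 with library medians set equal, relative to the epithelial markers, or with voom and median-ratio sizes, all higher, and 4 to 6 with a mouse left out. In TAI/IVIg against control it was 3 without the filter, with medians set equal, after quantile normalization, relative to the epithelial markers or with voom and median-ratio sizes, and 1 to 5 with a mouse left out. HNF4 targets called in TAI numbered 6 without the filter. CDX2 targets called in TAI numbered 1 without the filter and 4 in a fit of only the 6 mice compared, and 1 to 4 with a mouse left out. In TAI/IVIg against control they numbered 1 without the filter or with only the 6 mice, and 1 to 4 with a mouse left out, while the other epithelial factors called numbered 11 to 16. The cause was not tested, beyond the fewer mice or the added low genes that an alternative has by construction.

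With the replicate block over all 9 mice, 4 CDX2 targets were called in TAI against control, and 4 with the block over the control and TAI mice alone, the only alternative chosen after seeing the data, which called 7 factors, Hnf4g among them. The block over all 9 mice changed no call on a factor. Over all genes, it called 4863 against 4561 in TAI against control and 3 against 0 in TAI/IVIg against TAI, where same-numbered mice had r of -0.067 to 0.201. Among the TAI mice, each control mouse correlated best with that of its own number. Control mouse 3 correlated more with TAI/IVIg mouse 2 (r = 0.408) than with TAI mouse 3 (r = 0.308).

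Some changes that were not called changed sign. Hnf4a in TAI/IVIg against TAI was 0.132 with medians set equal, 0.085 relative to the epithelial markers, 0.199 with voom and median-ratio sizes and -0.160 to 0.022 with a mouse left out, and against control -0.035 to 0.147. Elf3 in TAI/IVIg against TAI was 0.077, 0.029 and 0.149 under the same 3 scalings and -0.310 to 0.131 with a mouse left out. For Hnf4g in TAI/IVIg against control the values were 0.296, 0.197 and 0.304, 0.062 after quantile normalization and -0.579 to 0.218 with a mouse left out. Cdx2 in the same comparison, called only without TAI/IVIg mouse 3, was 0.037 with medians set equal and 0.058 with voom and median-ratio sizes. Klf5 in TAI/IVIg against TAI ran from -0.126 to 0.119 and Gata6 from -0.023 to 0.200 with a mouse left out.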

Other observations

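Of the 31 other epithelial transcription factors, 4 were below the filter and were not tested. Foxa2, a forkhead factor of secretory cells, was at 0.787 ± 0.400 FPKM in control, 0.594 ± 0.0674 FPKM in TAI and 0.336 ± 0.0824 FPKM in TAI/IVIg mice (SD, n = 3 in each group). Pdx1, a homeobox factor of the duodenum and pancreas, was at 0.284 ± 0.286, 0.0360 ± 0.0158 and 0.0367 ± 0.0422 FPKM. Grhl1, a grainyhead factor, was at 0.379 ± 0.0703, 0.384 ± 0.0933 and 0.214 ± 0.111 FPKM. Onecut2, a factor related to HNF6, was at 0.0614 ± 0.0339, 0.190 ± 0.193 and 0.322 ± 0.211 FPKM. All are far below the lowest of the 8 factors in any mouse.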
